A study of Homo sapiens with 12 samples.

Results

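The genes described here are the zinc finger genes whose current symbol is ZNF followed by a number and whose raw read counts, summed over the 12 libraries of the series, reached 3000. They numbered 203 of the 477 ZNF-named genes in the count tables and of 60617 gene IDs in all, of which 33780 had a count in at least 1 library. The choice used the summed level and no comparison between groups, so levels are given below as a description and differences between groups were tested. The set itself was chosen with earlier results of these data known, so the tests are not independent of those results. Just inside the limit were ZNF432 with 3002, ZNF606 with 3026 and ZNF510 with 3064 counts, and just outside were ZNF775 with 2972, ZNF718 with 2952 and ZNF772 with 2881. Of the 274 ZNF-named genes below the limit, 26 had no count in any library. All 203 passed the low-count filter of each fit, and the lowest count of any of them in any library was 42.

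Most ZNF-named genes code for proteins with C2H2 zinc fingers, short folds that hold a zinc ion between a pair of cysteines and a pair of histidines and that bind DNA when strung together. Many also carry a KRAB box, a stretch that recruits the co-repressor TRIM28 and, through it, the histone methyltransferase SETDB1 and HP1 proteins, which silence transposons and other targets. The largest clusters of KRAB zinc finger genes lie on chromosome 19. Other members of the set are activators, RNA-binding proteins or ubiquitin ligases, and a few share only the name.

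Bulk RNA-seq was made from 769-P cells, a line established from a human clear cell carcinoma of the kidney, in 2 experiments with 3 libraries per group. In the first, cells labelled siDRAIC (small interfering RNA against the long non-coding RNA DRAIC) stand beside their own controls, siDRAIC-NC. In the second, cells labelled sihnRNPA2B1 (small interfering RNA against the RNA-binding protein hnRNPA2B1) stand beside sihnRNPA2B1-NC. All 4 groups come from the same line grown in RPMI1640 with serum, and no dose, time or siRNA sequence is stated in the labels. Nothing says that the 3 libraries of a group came from separate cultures, so the p-values measure the spread between these libraries, which may be technical. In bulk RNA, fewer cells with a transcript and less of it per cell cannot be told apart.

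Total counts ran from 30798303 to 42760528 per library. DRAIC itself had 2, 1 and 2 counts in siDRAIC-NC and 3, 6 and 0 in siDRAIC, so its knockdown was not detectable at this depth and the treated group is called by its label. HNRNPA2B1 fell by 0.56 on the log2 scale (SE 0.052, adjusted p = 2.16e-09, edgeR) in sihnRNPA2B1. The renal markers PAX8, PAX2, KRT8, KRT18, VIM and CA12 were present. Of 15 markers of blood, endothelial, fibroblast, liver and nerve cells, 8 (PTPRC, PECAM1, CDH5, VWF, DCN, ALB, APOA1 and SNAP25) stayed below 0.5 CPM (counts per 1000000 counts of the library total) in every library. The other 7 reached 356 CPM for SERPINA1, 64.3 for NEFL, 24.0 for CD74, 13.4 for COL1A1, 6.39 for LAPTM5, 6.15 for PDGFRB and 1.56 for RBFOX3. CD74 moved with the groups, from 9.11, 12.1 and 24.0 CPM in siDRAIC-NC to at most 0.935 CPM in siDRAIC, and SERPINA1 lay between 170.3 and 356 CPM in the DRAIC experiment and between 29.1 and 56.3 CPM in the other. The share of counts from mitochondrial genes ran from 8.08% to 8.91% for siDRAIC-NC and from 9.16% to 10.9% for siDRAIC. It was lower in the other experiment, at 6.05% to 6.27% for sihnRNPA2B1-NC and 7.53% to 7.87% for sihnRNPA2B1. The part of these markers and of the mitochondrial share in the differences below was not tested.

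All 203 genes are annotated as protein coding in GENCODE 29 on hg38. Chromosome 19 held 69 of them, chromosome 7 held 20 and chromosome 16 held 19. A strict KRAB pattern was found in 63 of the translated proteins, 38 of them from chromosome 19 genes, and a wider pattern in 87. Both are matches of letters that were not checked against a domain annotation. They may miss KRAB boxes or match other stretches. The median number of C2H2 finger matches was 9, and ZNF462 had the most with 33. No finger match was found in 5 proteins, those of ZNF185, ZNF330, ZNF503, ZNF839 and ZNF862. ZNF185 is a LIM-domain protein of the actin cytoskeleton. An exon of 101 of the genes overlapped an exon of another gene, on the opposite strand in 70. The 70 include ZNF655, ZNF558, ZNF664, ZNF219, ZNF292, ZNF511 and ZNF638. Overlaps are marked below for some genes only. Whether strand was used in counting is not stated in the labels.

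The promoters below are those of ZNF467 and ZNF267, which rose in sihnRNPA2B1, and of ZNF558 and ZNF697, which were lower in siDRAIC-NC than in sihnRNPA2B1-NC with no overlap. Each is the 250 bases before the outermost RefSeq start on GRCh38.p14, 5′ to 3′ on the gene's strand. Capitals mark CCGGAAG, the core bound by ETS factors, GGGCGG, the GC box bound by SP and KLF factors, and ACTACAA, which belongs to the element bound by ZNF143, each on either strand.
ZNF467, chr7:149773589-149773838, minus strand: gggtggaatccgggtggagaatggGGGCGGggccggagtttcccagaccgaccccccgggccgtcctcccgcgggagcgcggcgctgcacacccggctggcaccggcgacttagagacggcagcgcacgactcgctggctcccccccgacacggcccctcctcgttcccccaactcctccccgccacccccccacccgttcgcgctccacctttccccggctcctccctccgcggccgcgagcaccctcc
ZNF267, chr16:31873557-31873806, plus strand: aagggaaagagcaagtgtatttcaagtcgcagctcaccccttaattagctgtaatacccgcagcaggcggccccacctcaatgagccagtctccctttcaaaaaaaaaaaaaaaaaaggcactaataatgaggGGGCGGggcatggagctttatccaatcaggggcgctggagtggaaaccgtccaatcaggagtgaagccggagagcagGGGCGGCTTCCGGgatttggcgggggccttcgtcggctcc
ZNF558, chr19:8832305-8832554, minus strand: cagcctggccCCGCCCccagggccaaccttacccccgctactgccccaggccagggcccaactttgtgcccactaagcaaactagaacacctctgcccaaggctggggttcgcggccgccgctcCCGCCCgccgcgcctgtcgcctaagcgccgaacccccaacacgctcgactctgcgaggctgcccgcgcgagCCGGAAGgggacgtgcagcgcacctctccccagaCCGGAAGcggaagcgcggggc
ZNF697, chr1:119648267-119648516, minus strand: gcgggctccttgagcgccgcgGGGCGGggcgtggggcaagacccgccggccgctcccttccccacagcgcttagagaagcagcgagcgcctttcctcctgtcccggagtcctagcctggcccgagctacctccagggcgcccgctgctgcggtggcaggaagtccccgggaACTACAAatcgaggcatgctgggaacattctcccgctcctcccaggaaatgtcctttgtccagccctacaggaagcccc

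The ZNF467 stretch holds 1 GC box and is 75.6% G or C. In the ZNF267 promoter, with 54.4% G or C, a GC box runs straight into an ETS core on the other strand. ZNF558, a KRAB gene, carries 2 ETS cores near its start and 2 GC boxes, and ZNF697 carries 1 GC box and 1 ACTACAA.

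RefSeq promoters of 300 bases (250 before and 50 after the start) matched 177 of the 203 genes, with 235 starts. The ETS core was present in 36.2% of these, in 10.3% of all 35116 promoters in the table and in 18.6% of the 11677 promoters of genes with 3000 or more counts. ACTACAA was present in 9.79% of the ZNF promoters, against 2.77% of all and 3.55% of those of genes with 3000 or more counts. The GC box was present in 67.7%, against 45.0% and 68.2%, so its share was near that of genes at similar levels. TATAAA, the core of the TATA box, was found in 2.55%, against 11.5% and 5.57%. Promoters of the genes called higher in sihnRNPA2B1 held the ETS core in 20 of 59 starts, and those of the genes called lower in 14 of 32. These are matches of letters in a window, described without a test.

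The ZNF-named genes were low to moderate in level. Their mean over the 12 libraries had a median of 16.4 CPM and ran from 6.78 to 159 CPM. Per kilobase of exon, the highest was ZNF622, a factor in maturation of the large ribosomal subunit, at 35.9 CPM per kb. It was followed by ZNF768, which binds a class of old transposons, and ZNF664, both at 24.3 CPM per kb, ZNF281 at 23.8 and ZNF598 at 23.5. ZNF281 is a transcription factor of stem and tumour cells, and ZNF598 is the ubiquitin ligase that marks collided ribosomes. The lowest were ZNF891 at 0.671, ZNF26 at 0.829, ZNF445 at 0.853, ZNF529 at 0.857 and ZNF81 at 0.861 CPM per kb.

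Across the 4 groups, the summed level of the 203 genes separated the 2 experiments. It was 4955, 4295 and 4257 CPM in siDRAIC-NC and 4947, 4453 and 4581 in siDRAIC. In sihnRNPA2B1-NC it was 6550, 6408 and 6625 CPM, and in sihnRNPA2B1 it was 7029, 6849 and 6784. Every library of the hnRNPA2B1 experiment was above every library of the DRAIC experiment, every sihnRNPA2B1 library was above every control of its own experiment, and the 2 DRAIC groups overlapped. The 63 genes with the strict KRAB pattern summed to 827, 668 and 682 CPM in siDRAIC-NC, 857, 733 and 767 in siDRAIC, 1221, 1193 and 1252 in sihnRNPA2B1-NC and 1347, 1317 and 1306 in sihnRNPA2B1. Single genes did not all follow the sums: the fitted difference was above 0 in siDRAIC-NC against sihnRNPA2B1-NC for 53 of the 203, and the fitted change after hnRNPA2B1 siRNA was below 0 for 73.

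**Figure D1:**
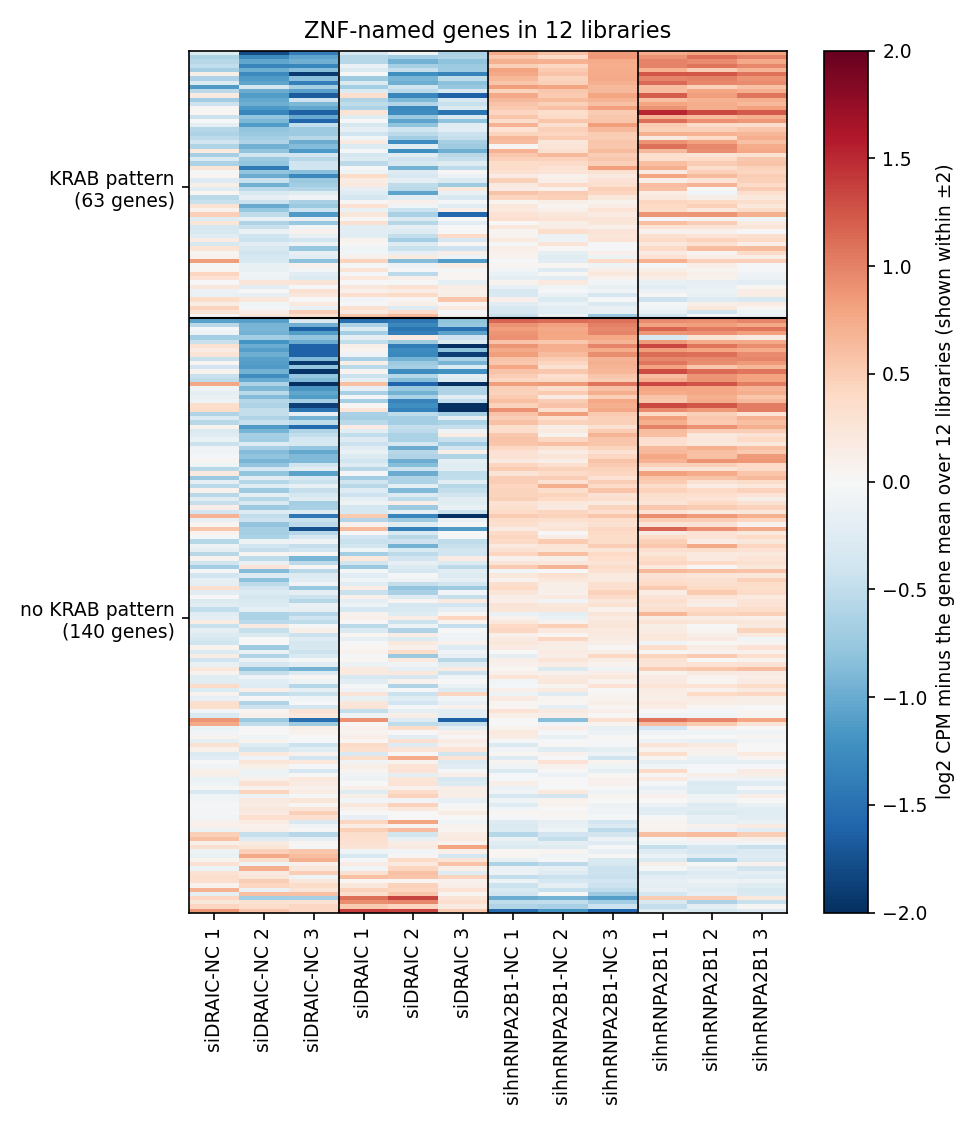
Each row is a ZNF-named gene and each column a library, grouped by experiment; colour gives log2 CPM minus the gene's mean over the 12 libraries, shown within ±2. Rows are split into 63 genes with the strict KRAB pattern and 140 without, and ordered by the difference between the control groups. Most rows are below their mean in the 6 DRAIC libraries and above it in the 6 hnRNPA2B1 libraries, and replicates 1 of both DRAIC groups are paler than replicates 2 and 3.

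Libraries of the DRAIC experiment differed more among themselves. The coefficient of variation over 3 libraries had a median of 18.1% in siDRAIC-NC and 15.3% in siDRAIC, against 7.6% in sihnRNPA2B1-NC and 5.81% in sihnRNPA2B1. The medians over all genes with 3000 or more counts were 15.9%, 13%, 6.09% and 4.41%. Replicate 1 gave the highest level of the group for 124 of the 203 genes in siDRAIC-NC and for 87 in siDRAIC, and in both groups for 80. The widest spread in both DRAIC groups belonged to ZNF292, a long zinc finger protein known as a tumour suppressor. It measured 19.6, 7.49 and 2.5 CPM in siDRAIC-NC and 17.5, 3.84 and 1.12 CPM in siDRAIC, while the 6 hnRNPA2B1 libraries lay between 20.5 and 28.9 CPM. ZNF638, an RNA- and DNA-binding protein that works with the HUSH silencing complex, behaved alike, at 66.7, 29.1 and 15.2 CPM in siDRAIC-NC and 59.3, 16.7 and 10.3 in siDRAIC.

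After hnRNPA2B1 siRNA, 47 of the 203 genes rose and 27 fell. The risers were led by ZNF467, known from fat and bone cell fate, ZNF618, a partner of the methylcytosine-binding protein UHRF2, ZNF248 and the KRAB gene ZNF267. The deepest fall was that of ZNF185. All but 3 of the calls were under 2-fold, the exceptions being ZNF467, ZNF618 and ZNF117, all higher. Calls came from edgeR's quasi-likelihood test on all 15710 tested genes, at a Benjamini-Hochberg adjusted p below 0.05. Over all tested genes 30.4% were called, 15.1% higher and 15.4% lower, and over the 9747 with 3000 or more counts 39.7%, 18.0% higher and 21.7% lower. The share of ZNF-named genes called, 36.5%, lay between these backgrounds. Their median change was 0.09 on the log2 scale, against 0.01 over all tested genes and -0.02 over those with 3000 or more counts. Groups did not overlap for 71 genes that were higher and 30 that were lower, where 42.0% of all tested genes did not overlap (23.7% higher and 18.3% lower) and 50.5% of those with 3000 or more counts (26.7% higher and 23.8% lower). Fitted with the more variable DRAIC libraries in a single model of 12 libraries, only 3 genes were called higher (ZNF467, ZNF618 and ZNF248) and 1 lower (ZNF185), with a median change of 0.09. That fit called 1.66% of all tested genes, 1.09% higher and 0.568% lower.

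ZNF467 (ENSG00000181444, chr7:149764182-149773479) measured 8.38, 8.64 and 7.78 CPM in sihnRNPA2B1-NC and 23.7, 23.7 and 19.3 CPM in sihnRNPA2B1. The groups were far apart, and the log2 fold change was 1.39 (SE 0.10, adjusted p = 2.14e-11, edgeR). ZNF618 (ENSG00000157657, chr9:113876282-114056591) measured 5.72, 7.22 and 5.50 CPM in the controls and 13.9, 13.3 and 13.8 CPM after siRNA. Again no library overlapped, and the log2 fold change was 1.11 (SE 0.12, adjusted p = 2.92e-08, edgeR). ZNF248 (ENSG00000198105, chr10:37776526-37858106) rose from 6.79, 7.72 and 7.78 CPM to 15.3, 15.7 and 14.2 CPM, a log2 fold change of 0.98. Exons of ZNF248 overlap a gene on the opposite strand.

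ZNF267 (ENSG00000185947, chr16:31873758-31917357) rose from 8.51, 8.08 and 8.95 CPM to 18.2, 15.9 and 14.7 CPM, a log2 fold change of 0.90 (SE 0.11, adjusted p = 1.38e-07, edgeR). ZNF117, whose exons overlap the endogenous retroviral gene ERV3-1, gave 8.28, 4.57 and 10.3 CPM in the controls and 17.6, 16.3 and 14.3 CPM after siRNA. Its controls were the most spread of the set, and reads of ZNF117 and ERV3-1 may not be told apart. Smaller rises without overlap were those of ZNF83 (log2 fold change 0.58), ZNF514 (0.63), ZNF721 (0.58), ZNF260 (0.54) and ZNF605 (0.47), the last a KRAB gene. Exons of ZNF514, ZNF721, ZNF260 and ZNF605 overlap another gene, on the opposite strand for ZNF260. ZNF721 went from 16.0, 17.3 and 19.04 CPM to 29.1, 27.7 and 23.6 CPM. Among genes of higher level, ZNF532, a chromatin protein that associates with ZMYND8, rose from 101, 95.6 and 108 CPM to 132, 132 and 133 CPM. ZNF664 rose from 177, 160 and 177 CPM to 228, 221 and 208 CPM, with log2 fold changes of 0.35 for ZNF532 and 0.32 for ZNF664.

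ZNF185 (ENSG00000147394, chrX:152914442-152973480) measured 12.8, 11.5 and 11.5 CPM in sihnRNPA2B1-NC and 5.40, 8.13 and 7.64 CPM in sihnRNPA2B1. Every treated library was below every control, and the log2 fold change was -0.78 (SE 0.13, adjusted p = 2.68e-05, edgeR). The other falls were shallow. ZNF787 went from 77.0 ± 8.25 to 58.6 ± 4.92 CPM (SD, n = 3), a log2 fold change of -0.43. ZNF672 went from 93.5 ± 8.60 to 73.8 ± 0.148 CPM (-0.38), and ZNF768 from 82.4 ± 1.47 to 66.1 ± 2.86 CPM (-0.35). ZNF316, a KRAB gene, went from 125 ± 7.32 to 103 ± 2.06 CPM (-0.31). ZNF408 (-0.31), ZNF574 (-0.30), ZNF319 (-0.30), ZNF777 (-0.24) and ZNF697 (-0.21) also passed, and of these the ZNF777 protein holds the KRAB pattern.

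Changes were largest among the less abundant genes, as the plot of change against level shows. Of the 78 ZNF-named genes with 10000 or more counts, 14 rose and 18 fell, with a median change of 0.01. Below the limit of 3000, 188 genes passed the filter, of which 42 rose and none fell by edgeR, with 63 at an unadjusted p below 0.05 in either direction and a median change of 0.27. Over all tested genes 15.1% rose and 15.4% fell, and over those with 3000 or more counts 18.0% and 21.7%. The share over all genes below the limit was not taken, so this upward lean is not shown to be particular to ZNF-named genes.

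**Figure D2:**
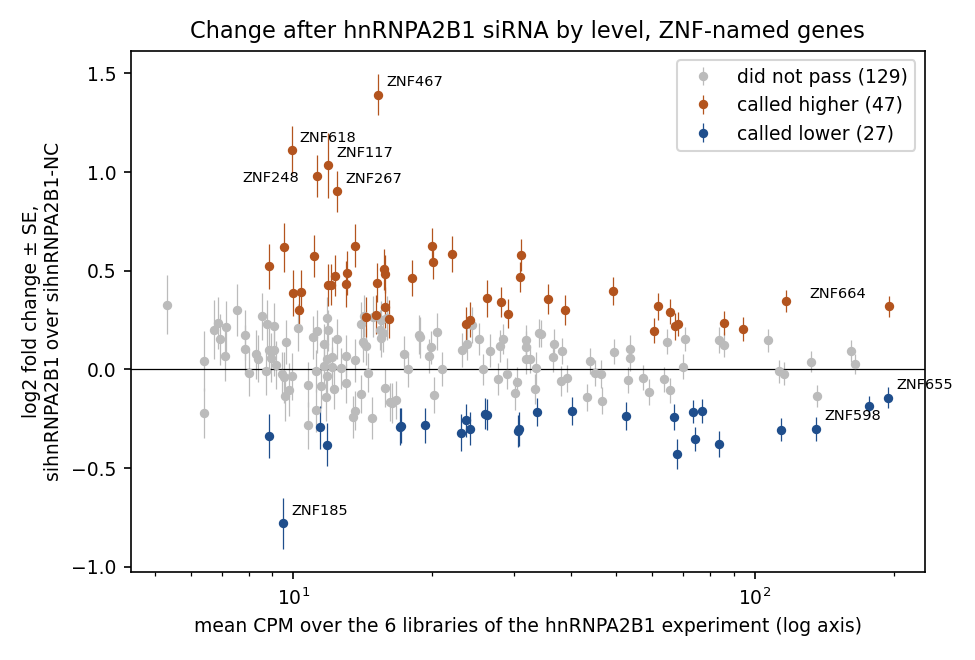
Each point is a ZNF-named gene; the x axis gives its mean CPM over the 6 libraries of the hnRNPA2B1 experiment on a log scale and the y axis the log2 fold change of sihnRNPA2B1 over its controls, with bars of ± 1 SE. The 47 genes called higher include the only log2 changes above 0.9, all at the low end of the levels, and ZNF185 at -0.78 is the lowest point.

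By sequence class, 16 of the 63 genes with the strict KRAB pattern rose and 7 fell, with a median change of 0.14. Without it, 31 of 140 rose and 20 fell, with a median of 0.06. The share called was 36.5% with the strict pattern and 36.4% without it. Of all genes with 3000 or more counts 39.7% were called, 18.0% higher and 21.7% lower. With the wider pattern, 24 of 87 rose and 8 fell. On chromosome 19, 19 of 69 ZNF-named genes rose and 6 fell (median 0.15), while 62 of all 575 chromosome 19 genes with 3000 or more counts rose and 186 fell (median -0.10). Of the 59 genes whose proteins have 13 or more fingers, 18 rose and 5 fell, and of the 50 with 5 or fewer, 6 rose and 9 fell. These splits are described by their counts and were not tested against each other.

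Exon length moved with the direction, among all genes as well as among the ZNF-named genes. Of the 68 genes with the shortest exon total (1360 to 4808 bases), 8 rose and 16 fell. Of the 67 in the middle (4812 to 7289 bases), 17 rose and 8 fell, and of the 68 longest (7335 to 20863 bases), 22 rose and 3 fell. Among all genes with 3000 or more counts in the shortest range, 532 of 4130 rose and 1091 fell. In the middle range 502 of 2734 rose and 570 fell, and in the longest 723 of 2881 rose and 453 fell. The medians of the ZNF-named genes were 0.05, 0.06 and 0.15. All genes with 3000 or more counts in the same length ranges had medians of -0.06, -0.01 and 0.04, so the medians of both were highest in the longest range and the ZNF-named genes lay above in each range. The part of length in the changes was not tested.

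By role, the list of RNA, ribosome and spindle proteins had 1 riser and 2 fallers among its 9 members (33.3% called). Of all genes with 3000 or more counts 39.7% were called, 18.0% higher and 21.7% lower. The role lists are short and were not tested against this background. ZNF638 rose from 58.2 ± 1.74 to 73.0 ± 5.50 CPM (SD, n = 3; log2 fold change 0.29). ZNF598 fell from 148 ± 11.3 to 123 ± 2.03 CPM (log2 fold change -0.30), and ZNF622 from 81.6 ± 1.66 to 72.0 ± 3.56 CPM (-0.21). The splicing-linked ZNF326, the spindle protein ZNF207, the histone pre-mRNA factor ZNF473, and ZNF106, ZNF346 and ZNF706 did not pass. ZNF207, which had the highest mean CPM over the 12 libraries, stood at 155 ± 7.07 CPM in the controls and 169 ± 5.63 after siRNA. Of the 5 activators and promoter factors, ZNF148 rose from 54.0 ± 3.42 to 69.1 ± 6.28 CPM (0.32) and ZNF76 fell from 42.7 ± 1.41 to 37.7 ± 2.02 CPM (-0.21), while ZNF143, ZNF281 and ZNF335 did not pass. ZNF143 stood at 20.8 ± 2.07 CPM and 21.2 ± 0.941 CPM.

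Of the 3 ZMYND8-associated proteins, ZNF532 rose, and ZNF592 (115 ± 4.80 CPM in controls, 116 ± 2.74 after siRNA) and ZNF687 (64.0 ± 4.44 and 63.3 ± 0.823 CPM) did not pass. Among repressors of transposons and imprints, ZNF91, which silences SVA elements, rose from 13.9 ± 1.37 to 17.7 ± 2.26 CPM (0.31). ZNF274, which brings SETDB1 to ZNF gene clusters, rose from 55.8 ± 1.56 to 65.4 ± 0.779 CPM (0.20), and the imprint guardian ZNF445 did not pass (11.6 ± 0.832 and 13.2 ± 0.725 CPM). None of the 5 cancer and development genes passed by edgeR, with 1 at an unadjusted p below 0.05. They are ZNF217, an oncogene amplified in breast cancer, ZNF395, ZNF462, ZNF608 and ZNF609. The SUMO ligase ZNF451 did not pass either (39.4 ± 2.99 and 39.0 ± 0.896 CPM).

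Among 13 co-repressors of the KRAB pathway, 5 rose and 2 fell (53.8% called). Of all genes with 3000 or more counts, 39.7% were called, 18.0% higher and 21.7% lower. The remodellers CHD4 (log2 fold change 0.66) and CHD3 (0.33), the SETDB1 partner ATF7IP (0.46) and the deacetylases HDAC1 (0.21) and HDAC2 (0.19) rose, and UHRF1 (-0.59) and the DNA methyltransferase DNMT1 (-0.17) fell. TRIM28 stood at 311 ± 25.2 CPM in controls and 288 ± 10.9 CPM after siRNA (adjusted p = 0.0589, edgeR), and SETDB1 at 47.6 ± 0.817 and 46.4 ± 0.573 CPM. Of 4 HUSH complex genes, TASOR (0.20) and MORC2 (0.14) rose. Both lists are short and were not tested against this background.

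In the DRAIC experiment no ZNF-named gene passed. The median change of libraries labelled siDRAIC against siDRAIC-NC was 0.04 on the log2 scale, against -0.01 over all tested genes, and 0.713% of 15986 tested genes were called by edgeR (0.582% higher and 0.131% lower). At an unadjusted p below 0.05 there were 8 of the 203, where 10.7% of all tested genes lay below that p. DESeq2 called 1, ZNF467, and 2.16% of all genes with an adjusted p. Groups did not overlap for 14 genes that were higher and 3 that were lower in siDRAIC, against 15.6% of all tested genes (9.75% higher and 5.86% lower) and 15.1% of those with 3000 or more counts (8.47% higher and 6.62% lower).

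Libraries with the same number in both DRAIC groups deviated together, so the comparison was also fitted with the replicate number as a block. The labels state no pairing, and it was read from these same counts, so calls with the block rest on an assumed pairing. In that fit 8 genes were called higher and 3 lower, where 8.78% of all tested genes were called (5.2% higher and 3.58% lower). Without replicate 1 of siDRAIC-NC, and with no block, 10 were called, 7 higher and 3 lower, where 6.26% of all tested genes were called (3.03% higher and 3.23% lower). The share of ZNF-named genes called with the block, 5.42%, was below that of all tested genes.

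ZNF467 led here too. It measured 22.2, 10.4 and 10.5 CPM in siDRAIC-NC and 35.7, 42.3 and 19.9 CPM in siDRAIC, so the groups overlapped although each siDRAIC library was above the control of its own number. The log2 fold change was 1.18 with the block (SE 0.18, adjusted p = 1.3e-08, edgeR) and 1.19 without it (adjusted p = 0.186). ZNF608, a relative of the transcription regulator ZNF609, measured 43.8, 32.6 and 38.1 CPM in siDRAIC-NC and 54.1, 55.8 and 67.9 CPM in siDRAIC. These groups did not overlap, with a log2 fold change of 0.62 (adjusted p = 0.00367 with the block and 0.173 without, edgeR). ZNF219, a co-factor of SOX9, went from 17.5, 19.2 and 15.7 to 25.7, 33.9 and 24.4 CPM, also without overlap, with a log2 fold change of 0.65 with the block (adjusted p = 0.00587) and 0.66 without it (adjusted p = 0.218).

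The other genes called higher with the block were ZNF160 (log2 fold change 0.70), ZNF862 (0.75), ZNF83 (0.58), ZNF514 (0.55) and ZNF664 (0.44). The last 2 fall outside the rule for named genes in this comparison and were chosen after their values were seen. The 3 called lower were ZNF292 (-0.72), ZNF511 (-0.67) and ZNF638 (-0.53). Without the block, ZNF292 and ZNF638 changed sign when replicate 1 of siDRAIC-NC was left out, to 0.49 and 0.29, and when replicate 3 of siDRAIC was left out, to 0.11 and 0.03. ZNF511 measured 6.25, 11.5 and 10.5 CPM in siDRAIC-NC and 5.46, 6.90 and 5.32 CPM in siDRAIC, with overlap.

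The experiments have separate controls, so their calls can be set side by side. Of the 8 genes called higher with the block in siDRAIC, 5 were among the 47 that rose in sihnRNPA2B1 and none had fallen there. Of the 3 called lower, 2 (ZNF292 and ZNF638) had risen in sihnRNPA2B1. The same overlap was not counted over all tested genes, so these counts have no background and do not show a response particular to ZNF-named genes. The test of the difference between the changes, in a fit of all 12 libraries, called none of the 203 by edgeR, with 8 at an unadjusted p below 0.05, where 0.211% of all tested genes were called (0.105% in each direction) and 9.13% lay below that unadjusted p. DESeq2 called 1, ZNF185, and 1.12% of all genes with an adjusted p. In the fit of 12 libraries its change was 0.53 in siDRAIC and -0.79 in sihnRNPA2B1, a difference of 1.32 (SE 0.27, adjusted p = 0.063, edgeR). With the block the difference was called for ZNF185 and, in the other direction, for ZNF107, ZNF254, ZNF638 and ZNF721, where 1.51% of all tested genes were called (0.673% higher and 0.837% lower). For ZNF467, the changes in that fit without the block, 1.15 and 1.39, differed by -0.24 (SE 0.38, adjusted p = 0.907, edgeR).

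**Figure D3:**
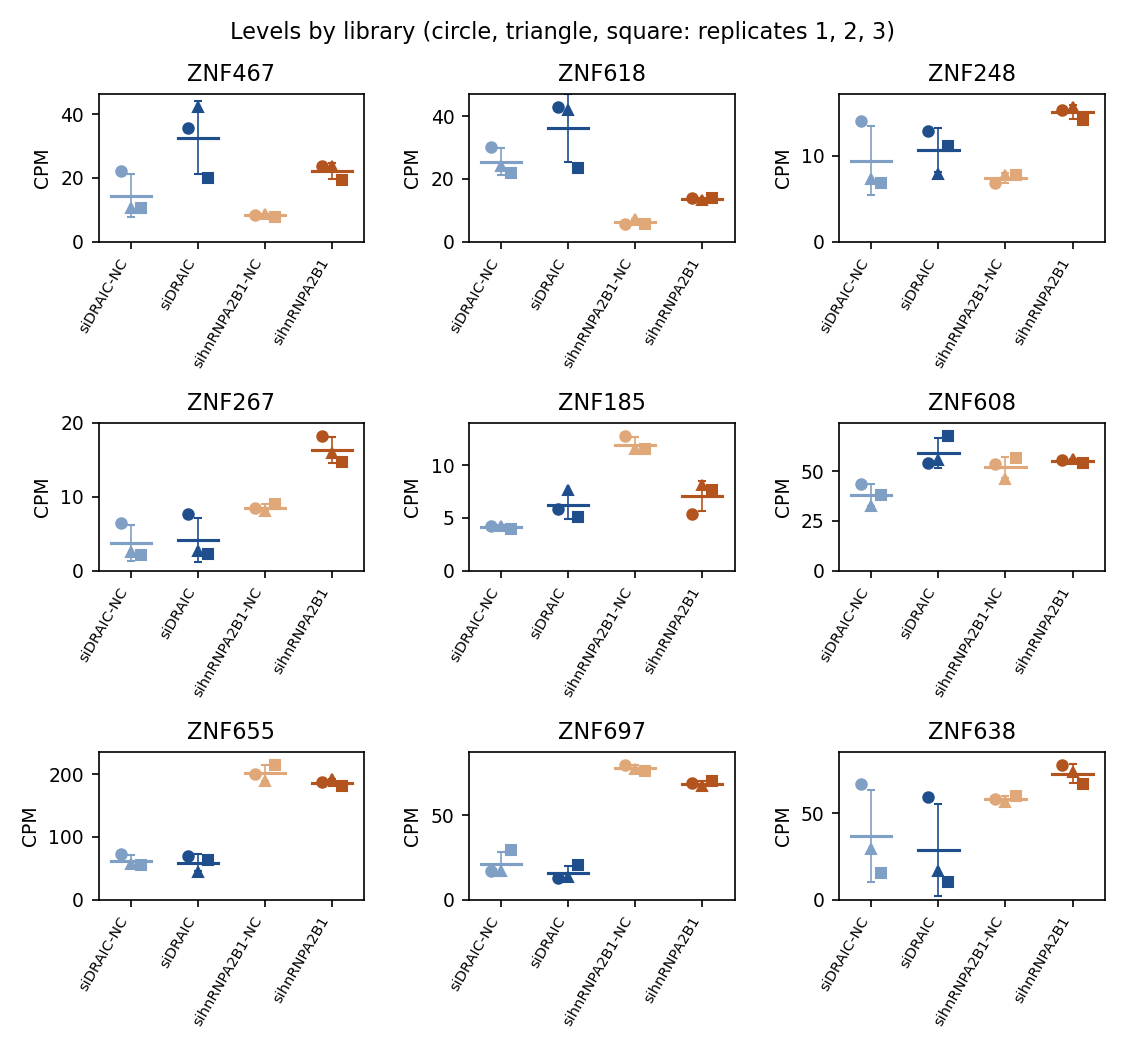
CPM of 9 ZNF-named genes in every library; circles, triangles and squares are replicates 1, 2 and 3, lines are group means and bars ± 1 SD (n = 3). ZNF467 is higher in both treated groups than in their controls, ZNF185 goes from 11.9 to 7.06 CPM in the hnRNPA2B1 experiment, ZNF655 and ZNF697 separate the experiments, and ZNF638 spreads most among the DRAIC libraries.

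The largest differences lay between the control groups. Against sihnRNPA2B1-NC, 110 of the 203 genes were lower and 16 higher in siDRAIC-NC, with a median difference of -0.49 on the log2 scale. Over all 17091 tested genes 51.6% were called, 26.6% higher and 25.0% lower, with a median of 0.02, and over those with 3000 or more counts 61.8% were called, 30.7% higher and 31.1% lower, with a median of -0.03. Groups did not overlap for 118 genes that were lower and 19 that were higher, against 57.8% of all tested genes (28.6% lower and 29.2% higher). Among all genes with 3000 or more counts, 66.9% did not overlap (34.4% lower and 32.5% higher), so the total of ZNF-named genes without overlap was near this background. The control group and the experiment it belongs to cannot be told apart, so these values describe the libraries and not an siRNA.

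ZNF655 (ENSG00000197343, chr7:99558406-99576453), a regulator of the cell cycle, had the smallest p, and its exons overlap FAM200A on the opposite strand. It measured 72.6, 56.5 and 54.8 CPM in siDRAIC-NC and 200, 190 and 215 CPM in sihnRNPA2B1-NC, a log2 difference of -1.71 (SE 0.14, adjusted p = 1.9e-07, edgeR). ZNF697 (ENSG00000143067, chr1:119619422-119647773) had the largest among the genes lower in siDRAIC-NC, at 17.0, 16.8 and 29.3 CPM against 79.8, 77.7 and 76.3 CPM, or -1.87 (SE 0.22, adjusted p = 5.1e-06, edgeR). Both were low in all 6 DRAIC libraries and high in all 6 hnRNPA2B1 libraries, with no overlap. ZNF558 (ENSG00000167785, chr19:8806170-8832328) measured 9.80, 6.96 and 7.37 CPM against 23.5, 23.3 and 23.9 CPM (-1.55). ZNF627 (-1.57), ZNF425 (-1.51), ZNF561 (-1.47), ZNF621 (-1.44), ZNF140 (-1.39), ZNF532 (-1.37), ZNF562 (-1.28), ZNF669 (-1.17) and ZNF274 (-1.14) were lower too, of which ZNF621 holds only the wider KRAB pattern, ZNF532 neither, and the rest the strict pattern.

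ZNF618 went the other way, at 30.3, 24.1 and 22.0 CPM in siDRAIC-NC and 5.72, 7.22 and 5.50 CPM in sihnRNPA2B1-NC, a log2 difference of 2.05 (SE 0.21, adjusted p = 1.2e-06, edgeR). The SCAN-domain gene ZNF174 measured 9.26, 8.74 and 9.10 CPM against 4.51, 4.37 and 5.12 CPM (0.97). Higher too were ZNF362 (0.85), ZNF668 (0.75), ZNF445 (0.73), ZNF865 (0.67), ZNF692 (0.65), ZNF629 (0.63), ZNF710 (0.60), ZNF512 (0.60), ZNF503 (0.58) and ZNF584 (0.56). Of these, ZNF584 alone holds the strict KRAB pattern, and ZNF445 and ZNF618 the wider.

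By class, 39 of the 63 genes with the strict KRAB pattern were lower in siDRAIC-NC and 2 higher, with a median difference of -0.75. Without the pattern, 71 of 140 were lower and 14 higher, with a median of -0.44. The share called was 65.1% with the strict pattern and 60.7% without it. Of all genes with 3000 or more counts 61.8% were called, 30.7% higher and 31.1% lower. With the wider pattern, 54 of 87 were lower and 4 higher (median -0.62), and without it 56 of 116 were lower and 12 higher (median -0.42). On chromosome 19, 38 of 69 ZNF-named genes were lower and 4 higher (median -0.58), whereas 125 of all 575 chromosome 19 genes with 3000 or more counts were lower and 235 higher (median 0.23). The chromosome 19 genes were not alike along its length. In the run of 19 genes from ZNF264 to ZNF324 (chr19:57191500-58475436), 12 were lower and 1 higher, and in the run of 10 from ZNF175 to ZNF761 (chr19:51571298-53458261), 6 were lower and none higher by edgeR. In the run of 9 from ZNF628 to ZNF71 (chr19:55476332-56626481), 1 was lower and 2 higher, with a median of 0.14. The run of 7 from ZNF414 to ZNF562 (chr19:8509678-9675086) had 6 lower and 1 higher.

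**Figure D4:**
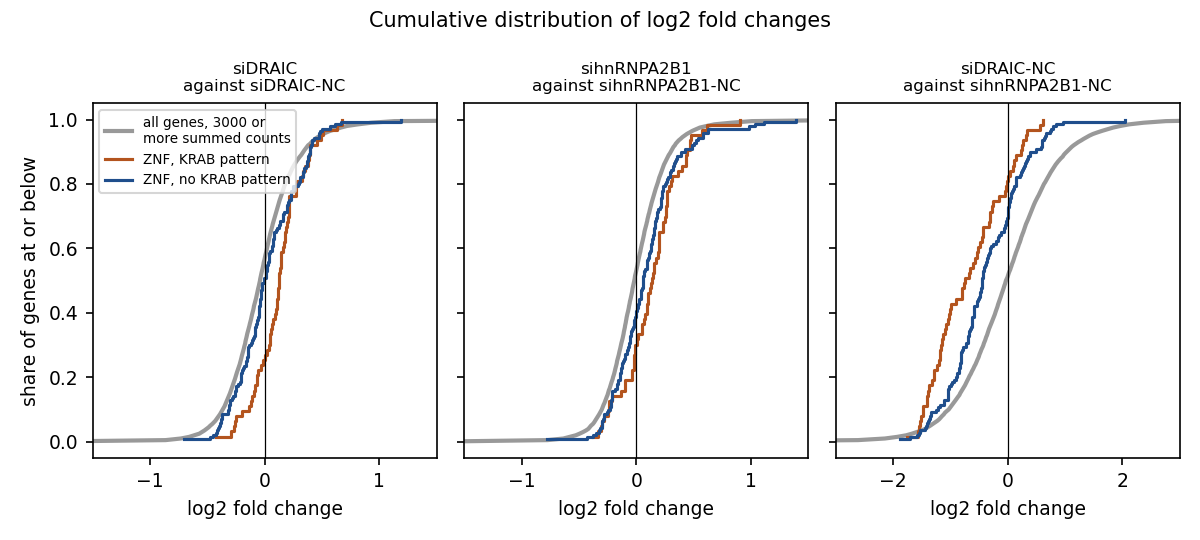
Cumulative share of genes (y axis) at or below each log2 fold change (x axis) in the 3 comparisons named above the panels, for all genes with 3000 or more counts, the 63 ZNF-named genes with the strict KRAB pattern and the 140 without. In the right panel both ZNF curves lie to the left of the curve of all genes, with medians of -0.75 and -0.44 against -0.03; in the middle panel they lie slightly to the right, with medians of 0.14 and 0.06 against -0.02.

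By exon length, 25 of the 68 shortest ZNF-named genes were lower and 11 higher. In the middle 44 of 67 were lower and 3 higher, and 41 of the 68 longest were lower and 2 higher. Among all genes with 3000 or more counts in the shortest range, 1011 of 4130 were lower and 1575 higher. In the middle range 917 of 2734 were lower and 789 higher, and in the longest 1105 of 2881 were lower and 629 higher. The medians of the ZNF-named genes were -0.11, -0.68 and -0.66. Those of all genes with 3000 or more counts in the same ranges were 0.15, -0.07 and -0.24. The 70 genes with an exon overlapping a gene on the opposite strand had a median of -0.61 and the 133 without had -0.48.

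**Figure D5:**
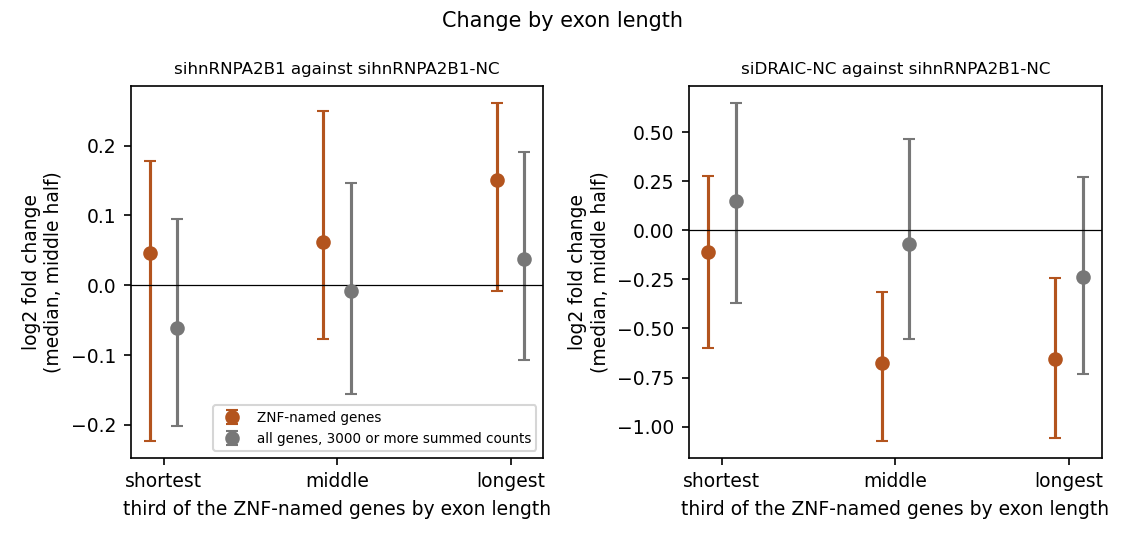
Median log2 fold change (points) and the range from the lower to the upper quartile (bars) for ZNF-named genes split into 3 sets by exon length, and for all genes with 3000 or more counts in the same length ranges; left, sihnRNPA2B1 against its controls, right, the control groups. In both panels the ZNF-named genes are offset from all genes in each length range, upward at the left and downward at the right, there by most in the middle range (-0.68 against -0.07).

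By role, 4 of 5 cancer and development genes were lower in siDRAIC-NC and none was higher. Of all genes with 3000 or more counts 61.8% were called, 30.7% higher and 31.1% lower. The role and co-factor lists are short and were not tested against this background. ZNF217 stood at 40.9 ± 9.13 against 78.3 ± 8.24 CPM (SD, n = 3; log2 difference -0.93), ZNF462 at 42.5 ± 13.02 against 67.1 ± 2.27 CPM (-0.66), ZNF609 at 106 ± 10.5 against 161 ± 4.19 CPM (-0.60) and ZNF608 at 38.1 ± 5.60 against 52.0 ± 5.41 CPM (-0.44). Of the 5 activators, ZNF148 (-0.82), ZNF143 (-0.63), ZNF281 (-0.43) and ZNF76 (-0.40) were lower and ZNF335 did not pass. Of the 9 RNA, ribosome and spindle proteins, ZNF106 (-0.82), ZNF622 (-0.82), ZNF598 (-0.59) and ZNF706 (-0.30) were lower and ZNF346 (0.35) was higher. ZNF592 (-0.53) was lower and ZNF687 did not pass, the SUMO ligase ZNF451 was lower (-0.78), and ZNF91 (-1.37) was lower while ZNF445 was higher. Among co-repressors, UHRF1 (1.46), DNMT1 (1.42), CHD4 (0.99), TRIM28 (0.97) and HDAC1 (0.78) were higher in siDRAIC-NC, and SMARCAD1 (-1.21), SETDB1 (-0.61) and HDAC2 (-0.41) were lower. TRIM28 measured 485, 686 and 619 CPM in siDRAIC-NC and 305, 338 and 289 CPM in sihnRNPA2B1-NC. Of the HUSH genes, PPHLN1 (0.56) was higher and MPHOSPH8 (-0.57) and MORC2 (-0.54) were lower.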

How the data were processed

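Bulk RNA-seq counts per gene were deposited by the authors as 2 tables, 1 per experiment, of 6 libraries each; the values are raw counts. Per the submitters' processing notes, fastp 0.23.2, STAR 2.7.10a, StringTie and DESeq2 were used with hg38; strand and counting settings are not stated. Libraries were grouped by their titles. Current symbols came from the Ensembl ID, and the ZNF-named genes and all lists were chosen with earlier results of these data known.

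Each comparison was fitted on its whole table with edgeR 4.0.16 in R 4.3.3 (TMM, filterByExpr with a minimum count of 10, robust quasi-likelihood test, two-sided, Benjamini-Hochberg, called at an adjusted p below 0.05); the difference of the changes and the control groups used all 12 libraries with 4 group means. Only the edgeR fits of each siRNA group against its own controls, without the replicate block, were tried on simulated counts. The fits with the block, of all 12 libraries and by DESeq2 were not. CPM are counts per 1000000 counts of the library total. Total counts were 30798303 to 42760528 per library, the median level of the ZNF-named genes was 16.4 CPM and their lowest count was 42. Counting error is part of the spread between libraries, and its size was not measured. It may weigh most in the hnRNPA2B1 experiment, where the median coefficients of variation were 7.6% and 5.81%.

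Exons, coordinates and translated coding sequences came from GENCODE 29, in place of the RefSeq proteins that had been planned. The strict KRAB pattern was fixed with the design; the wider pattern, the splits by exon length, the chromosome 19 runs (at least 3 genes with gaps under 500 kb), the promoter motifs and the background of genes with 3000 or more counts were added after the data were seen. A finger is a match of 2 cysteines, 12 residues on, 2 histidines. Promoters came from RefSeq (GRCh38.p14).

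Named genes are, per comparison, up to 12 higher and 12 lower with the smallest p among those called; for siDRAIC up to 6 each way among those called with the replicate block; the 5 highest and 5 lowest per kb of exon; those next to the limit of 3000; and the role and co-factor lists. Same-numbered libraries of the DRAIC groups deviated together (correlations of 0.489, 0.227 and 0.277, against -0.409 to 0.103 for other pairs), so the number was used as a block. No label states a pairing, and this one was read from the same counts that were then fitted. In the hnRNPA2B1 experiment the correlations of same-numbered libraries were -0.0117, -0.0242 and -0.0456, and no pairing was seen. Alternatives were RLE scaling, DESeq2 1.42.0, no low-count filter, the block, a fit of all 12 libraries, a 2-fold minimum, other count limits and leaving out each library.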

Additional observations from a re-analysis of the deposited data

How the results depend on the processing

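The number of genes called in sihnRNPA2B1 was 74 and ran from 50 to 84 with a library left out (median change 0.072 to 0.093); it was 4 in the fit of all 12 libraries, 3 with a 2-fold minimum and 32 among the 78 genes with 10000 or more counts. Between the control groups it was 126, ran from 104 to 139 with a library left out (median -0.547 to -0.491), and was 55 among the genes with 10000 or more counts. In siDRAIC it was 0, ran from 0 to 10 with a library left out (median -0.013 to 0.163), and was 1 without the low-count filter, 1 with DESeq2, 4 in the fit of all 12 libraries, 1 among the 320 genes with 1000 or more counts and 11 with the replicate block. The difference of the changes had 0, from 0 to 2 with a library left out (median -0.06 to -0.002), 2 without the filter, 1 with DESeq2 and 5 with the replicate block. The cause of these shifts was not tested. The replicate block moved no other count by more than 1.5 times: it gave 73 in sihnRNPA2B1 and 135 between the control groups. RLE scaling left all 4 counts within 1 gene. The sign changed for 2 named genes in siDRAIC with a library left out, ZNF292 (-1.93 to 0.493) and ZNF638 (-1.423 to 0.291).

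Of 29 named genes called in sihnRNPA2B1, 22 kept the call in every setting besides the 2-fold minimum, under which 3 genes were called (ZNF467, ZNF618 and ZNF117), and the fit of all 12 libraries, in which 4 kept it; ZNF274, ZNF319, ZNF622, ZNF697, ZNF76, ZNF777 and ZNF91 lost it in at least 1 other. Of 40 between the control groups, for which no 2-fold minimum was tried, 31 kept it, and ZNF148, ZNF281, ZNF346, ZNF503, ZNF668, ZNF706, ZNF710, ZNF76 and ZNF91 lost it in at least 1. With 3 libraries per group, shared reads between near-identical zinc finger genes or overlapping exons could move single values.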

Other observations

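Other C2H2 families went the way of the ZNF-named genes between the control groups. Of 85 tested genes of the ZBTB, ZKSCAN, ZSCAN, ZFP, KLF and SP families, 49 were lower and 5 higher in siDRAIC-NC than in sihnRNPA2B1-NC by edgeR, where 25.0% of all tested genes were lower and 26.6% higher, with a median log2 difference of -0.63. The KLF genes, transcription factors that bind GC-rich promoters, had 8 of 13 lower, none higher and a median of -1.15. The ZBTB genes had 18 of 33 lower and 4 higher, with a median of -0.63.

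In sihnRNPA2B1, 22 of 84 tested genes of these families rose and 6 fell, with a median change of 0.03. The share called, 33.3%, was near the 30.4% of all tested genes (15.1% higher and 15.4% lower). The ZFP genes had 5 of 10 higher and none lower (median 0.30), and the ZBTB genes 7 of 32 higher and 1 lower (median 0.00). None of the 84 was called in siDRAIC by edgeR without the replicate block, where 0.713% of all tested genes were called, and 8 lay at an unadjusted p below 0.05, where 10.7% of all tested genes did. With the block, 7 were called higher and 1 lower (9.52%), against 8.78% of all tested genes.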
